A study of Mus musculus with 6 samples.

Results

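The regions described here are stretches of accessible chromatin that appeared in the peak list of CD4 T cells grown for 48 h under Th17 conditions and in neither of the other 2 peak lists. Peaks of 3 deposited lists, from naive cells and from Th17 cultures at 48 h and at 72 h, were merged into regions where they shared at least 1 bp. Regions were chosen by the deposited peak calls alone: those with a 48 h peak and with no naive and no 72 h peak were kept. There were 3848 such regions among 81315 regions in all (4.73%), and among the 37425 regions that held a 48 h peak they made up 10.3%. Each of them held exactly 1 peak. Their presence at 48 h and their absence from the other lists are therefore the way they were chosen and are not results, and the scores and widths of their peaks are given as a description.

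All cells were CD4 T cells of C57BL/6 mice. Naive cells were untreated. Th17 cultures started from naive cells and were kept for 48 h or 72 h with 0.25 µg/mL antibody to CD3ε and 1 µg/mL antibody to CD28, which take the place of antigen and costimulatory signals, and with 0.1 ng/mL TGF-β and 20 ng/mL IL-6. The series has 2 libraries per condition, each from 10000 cells, with library fragments of 150 to 350, a range given in the labels without a unit. There was 1 peak list per condition, so no difference between conditions has a replicate check and no test across cultures could be made. A bulk peak list cannot tell a site open in fewer cells from a site less open in every cell, and a missing peak is not a measurement of closed chromatin.

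In ATAC-seq the transposase Tn5 inserts sequencing adapters into DNA that is not wrapped or covered, so reads pile up at promoters, enhancers and other regulatory elements. Activation of a T cell through its receptor and CD28 switches on AP-1, NFAT and NF-κB, and IL-6 with TGF-β steers the cell through STAT3 towards the Th17 fate, in which the cell makes IL-17A and IL-17F. Some regulatory elements are accessible only for a time on such a path, while others persist.

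The sequences that could be shown are those of promoter windows, since no genome was used here. RefSeq windows on GRCm38.p6, which run from 250 bases before a transcript start to 50 after it, were overlapped by 112 of the 3848 regions (2.91%), on 117 of 32851 windows. The stretches below are the parts of 48 h only regions that lie upstream of the start site, written 5′ to 3′ on the strand of the gene. They were chosen because they hold the window with the highest peak score at a protein-coding gene (Rbpjl), letters of the AP-1 site of BATF, JUN and FOS dimers (Olr1, Gm39853 and Tnfaip6), letters of a STAT site (Gm32081), or a gene of glycolysis (Pkm). Rbpjl encodes a relative of the Notch effector RBPJ, Olr1 a receptor for oxidised low-density lipoprotein, Tnfaip6 a hyaluronan-binding protein and Pkm a pyruvate kinase. Gm39853 and Gm32081 are long noncoding RNA genes. Capitals mark the motif letters found by searching both strands: TGANTCA for AP-1, TTCNNNGAA for STAT, TGGAAA for the NFAT core and AGATAAG for GATA.
Rbpjl, chr2:164403012-164403193, plus strand, peak score 89: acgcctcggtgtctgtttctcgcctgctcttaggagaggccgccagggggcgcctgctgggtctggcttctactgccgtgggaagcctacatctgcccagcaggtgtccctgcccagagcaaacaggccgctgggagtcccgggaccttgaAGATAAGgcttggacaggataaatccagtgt
Olr1, chr6:129507166-129507290, minus strand, peak score 70: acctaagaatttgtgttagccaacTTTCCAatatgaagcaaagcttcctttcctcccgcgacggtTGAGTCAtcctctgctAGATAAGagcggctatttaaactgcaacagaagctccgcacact
Gm32081, chr19:36184398-36184557, plus strand, peak score 68: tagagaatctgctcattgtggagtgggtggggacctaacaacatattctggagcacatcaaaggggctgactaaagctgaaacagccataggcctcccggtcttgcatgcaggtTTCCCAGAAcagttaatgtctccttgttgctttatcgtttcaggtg
Gm39853, chr2:75613258-75613391, plus strand, peak score 61: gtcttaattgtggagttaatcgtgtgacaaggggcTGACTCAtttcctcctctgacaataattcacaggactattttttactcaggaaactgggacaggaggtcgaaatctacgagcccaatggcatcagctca
Pkm, chr9:59657098-59657226, plus strand, peak score 53: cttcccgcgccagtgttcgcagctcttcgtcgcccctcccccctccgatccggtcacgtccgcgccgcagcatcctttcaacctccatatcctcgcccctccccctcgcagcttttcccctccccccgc
Tnfaip6, chr2:52037932-52038085, plus strand, peak score 37: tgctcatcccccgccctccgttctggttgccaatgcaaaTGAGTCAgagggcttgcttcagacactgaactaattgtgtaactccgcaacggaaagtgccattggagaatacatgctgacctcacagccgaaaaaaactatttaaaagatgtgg
The stretch at Olr1 carried letters of AP-1, NFAT and GATA sites together, and the one at Pkm carried none of the 18 motifs searched. A match of letters is a description of the sequence and not a bound site.

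Motif letters were counted by promoter window of 300 bp, so they can lie outside the region that overlaps the window. AP-1 letters were in 7 of the 117 promoter windows (5.98%, 95% interval 2.44 to 11.9) with a 48 h only region. They were in 15.9% (13.1 to 19.0) of the 605 windows with a region present at 48 h and at 72 h and absent from naive cells, in 4.1% of the 11200 windows with a region of all 3 lists, and in 7.81% of all 32851 windows. The interval of the 48 h only windows lay wholly below that of the 48 h and 72 h class, and held the shares of all 3 lists, of the naive and 48 h class (4.17% of 120 windows) and of all windows. For 72 h only regions the AP-1 share was 12.3% of 522 windows (9.57 to 15.4), above the 48 h only interval, though the intervals overlapped. For naive only regions it was 6.45% of 605 windows, inside the 48 h only interval. All intervals here are exact Clopper-Pearson intervals that cover counting error only. STAT letters were in 7 of 117 windows (5.98%), against 4.96% of the windows of the 48 h and 72 h class and 8.30% of all windows. NFAT letters were in 20 of 117 (17.1%, 10.8 to 25.2), against 15.4% and 21.4%. For STAT and NFAT the interval of the 48 h only class held both other values. GATA letters were in 5 of 117 windows (4.27%, 1.40 to 9.69), against 3.04% of all windows. In the 48 h and 72 h class the GATA share was 1.16% (0.466 to 2.37), with an interval that overlapped. The ETS site CCGGAAGT, common in promoters of widely expressed genes, was in 0 of 117 windows, which allows up to 3.10%, against 9.62% of the windows of regions in all 3 lists and 3.89% of all windows. In other classes the share was 0.826% for 48 h and 72 h, 0.575% for 72 h only and 1.32% for naive only, all within that limit, and 4.17% (1.37 to 9.46) for naive and 48 h. Median GC content was 58.7% in the 117 windows, 63.0% for the 48 h and 72 h class, 62.3% for regions of all 3 lists and 52.7% over all windows, so base composition differed between these sets as well, and its part in the motif shares was not tested. The classes with a 48 h peak also differed in peak score and width, given below. The part of score and width in the motif shares was not tested either.

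The peaks of the 48 h only regions had low scores and were narrow. The score is the authors' whole-number value per peak, its scale is not stated, and in the 48 h list it ran from 30 to 1260 with a median of 69. In the 48 h only regions it ran from 30 to 233, with a median of 44, quartiles of 37 and 55, and a 90th percentile of 70. Below the median of the whole list lay 3433 of the 3848 regions (89.2%, 88.2 to 90.2). Median 48 h scores were 46 for the 2091 regions shared with naive cells but not 72 h, 64.5 for the 10674 shared with 72 h but not naive cells, and 94 for the 20812 found in all 3 lists. The classes without a 72 h peak were thus near each other in score, and both lay below the regions that were still listed at 72 h. Peak widths had medians of 137 bp for 48 h only, 133 bp for naive and 48 h, 218 bp for 48 h and 72 h, and 337 bp for all 3 lists, so the classes without a 72 h peak were again near each other and below the rest. The widths of the 48 h only peaks ran from 100 to 721 bp, and 520 of them (13.5%) were exactly 100 bp wide, the smallest width in the list.

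**Figure D1:**
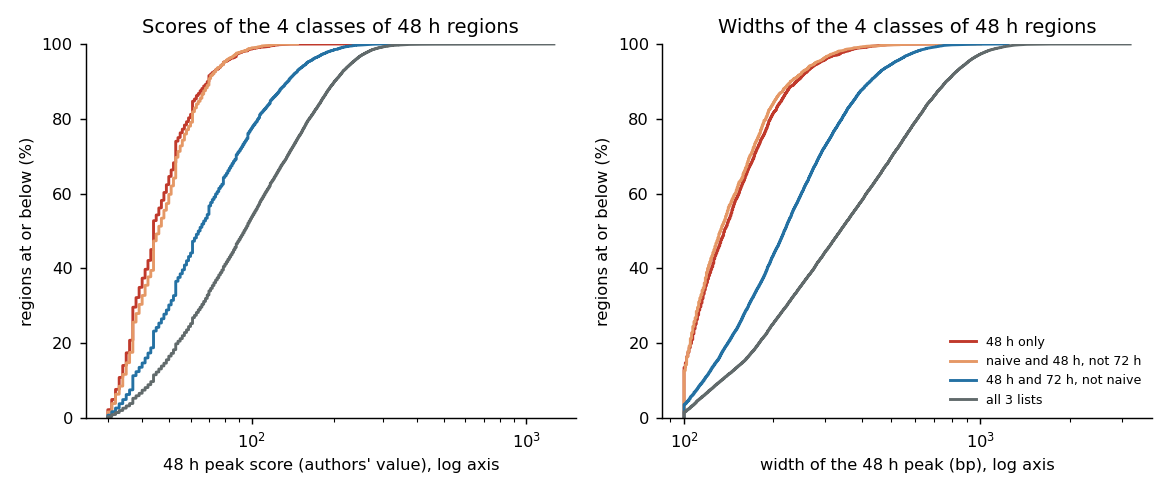
Cumulative share of regions (percent, vertical axis) by the authors' 48 h peak score (left, log axis) and by the width of the 48 h peak in bp (right, log axis), 1 line for each of the 4 classes of regions with a 48 h peak. The lines of the 48 h only class (median 44 and 137 bp) and of the naive and 48 h class (46 and 133 bp) lie close together and to the left of the other classes.

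The share of 48 h only regions fell steeply with score. It was 24.7% (2239 of 9082, 23.8 to 25.6) at scores of 30 to 47, 13.7% (1222 of 8892) at 48 to 69, 3.81% (359 of 9428) at 70 to 113 and 0.279% (28 of 10023, 0.186 to 0.404) at 114 and above. By width it was 25.3% at 100 to 151 bp, 12.7% at 152 to 234 bp, 4.06% at 235 to 400 bp and 0.380% at 401 bp and wider. Among the 4737 regions in the lowest quartile of both measures 1461 were 48 h only (30.8%), and among the 6727 in the highest quartile of both 4 were. Both measures belong to the peaks that chose the regions, so this slope is a description, and what sets it was not tested.

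**Figure D2:**
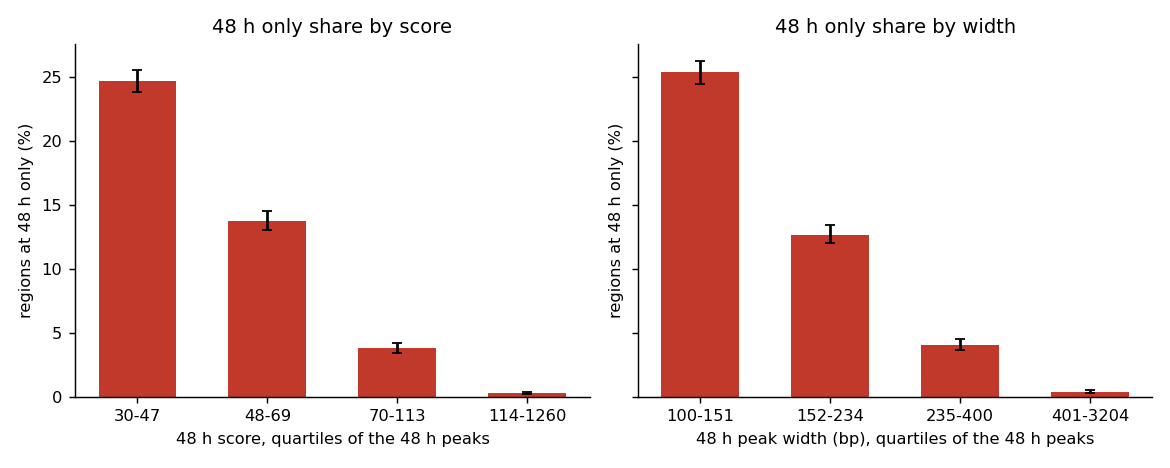
Share of the regions with a 48 h peak that were 48 h only (percent, bars from 0), by quartile of the authors' 48 h score (left) and of peak width (right); error bars are exact 95% intervals for counting error. The share goes from 24.7% in the lowest score quartile to 0.279% in the highest.

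The borderline cases show how close the choice can be. A gap of at most 1 bp to a peak of another list was found for 3 of the 48 h only regions, of at most 10 bp for 32 and of at most 50 bp for 130. On the other side, 7 shared regions had a 48 h peak that overlapped the other list's peak by 1 bp, 31 by at most 10 bp and 219 by at most 50 bp. Those nearest to the limit were chr3:52843152-52843512, which directly adjoined a naive peak, chr15:102355768-102355961 near Sp7 (1 bp from a 72 h peak), chr17:83632760-83632864 near Kcng3 (1 bp from a naive peak), chr12:81933632-81933800 inside Pcnx (2 bp, 72 h) and chr10:115328725-115328824 near Rab21 (3 bp, naive). Their scores were 46, 33, 46, 53 and 43. Just inside the shared classes, with an overlap of 1 bp each, were regions near Vpreb3 (score 45) and Rmi2 (40) and inside Frmd6 (40), Slc38a6 (37) and Ankrd33b (37). Among these named regions, scores ran from 33 to 53 for the 48 h only ones and from 37 to 45 for the shared ones. Scores of the other borderline regions were not compared.

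Many 48 h only regions stood close to other peaks. A naive or 72 h peak lay within 1 kb of 1275 of them (33.1%), within 500 bp of 25% and within 100 bp of 277 (7.20%), while 23.3% had no peak of any list within 10 kb. A naive peak lay within 1 kb of 19.2% (18 to 20.5), against 11.9% (11.3 to 12.6) of the class shared by 48 h and 72 h and 13.9% (13.4 to 14.5) of the regions at 72 h only. A 72 h peak lay within 1 kb of 27.7% (26.3 to 29.1), against 26.0% (24.2 to 28) of the regions in naive and 48 h and 22.5% (22.0 to 23.1) of those in naive cells only. Another 48 h peak lay within 1 kb of 26.0% (24.6 to 27.4), against 19.3% (18.6 to 20.1) of the 48 h and 72 h class and 23.1% (21.3 to 25) of the naive and 48 h class. For naive and for 48 h neighbours the interval of the 48 h only regions lay wholly above that of the 48 h and 72 h class, while for 48 h neighbours it overlapped that of the naive and 48 h class. Gaps come from the same peak positions that chose the regions, so these shares are a description. Median region width was 137 bp for 48 h only and 300.5 bp for the 48 h and 72 h class. The part of width and score in these shares was not tested. The nearest region of another class was of the 48 h and 72 h class for 888 of them (23.1%, 21.8 to 24.4), a class that makes up 13.8% of the other regions, and of the naive only class for 811 (21.1%, 19.8 to 22.4), which makes up 30.2% of the others. Regions at 72 h only had neighbours of the same kinds, with 26.5% against 16.1% for the 48 h and 72 h class and 27.3% against 35.3% for naive only. The median gap was 4862 bp to a 72 h peak and 8538 bp to a naive peak.

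Most of the 48 h only regions were distal. A middle within 1 kb of an end of a protein-coding gene was found for 418 (10.9%, 9.90 to 11.9), against 9.15% (8.61 to 9.72) in the 48 h and 72 h class, 15.2% (13.7 to 16.8) in the naive and 48 h class and 46.5% (45.8 to 47.2) in all 3 lists. Within 1 kb of an annotated start site lay 10.3%. Inside a gene lay 57.1% (55.5 to 58.7), close to the 56.3% of the 48 h and 72 h class and below the 65.2% of the regions in all 3 lists. The deposited lists and the gene table give no exons, so exon and intron were not told apart.

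Position varied with score, in opposite directions in different classes. At scores of 30 to 47, 12.6% (11.2 to 14) of 48 h only regions lay near a gene end, against 12.6% of the 48 h and 72 h class and 23.6% of all 3 lists. At 48 to 69 these shares were 9.49%, 10.3% and 27.4%, and at 70 to 113 they were 5.85%, 7.86% and 40.4%. At 114 and above, 0 of 28 lay near a gene end (up to 12.3%), against 4.11% and 68.1%. Near gene ends, then, higher scores went with fewer 48 h only regions and with more regions of all 3 lists. At equal score the 48 h only class was near the 48 h and 72 h class, with overlapping intervals in every score range, and the naive and 48 h class was at 16.9%, 14% and 10.8% in the 3 lower ranges.

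**Figure D3:**
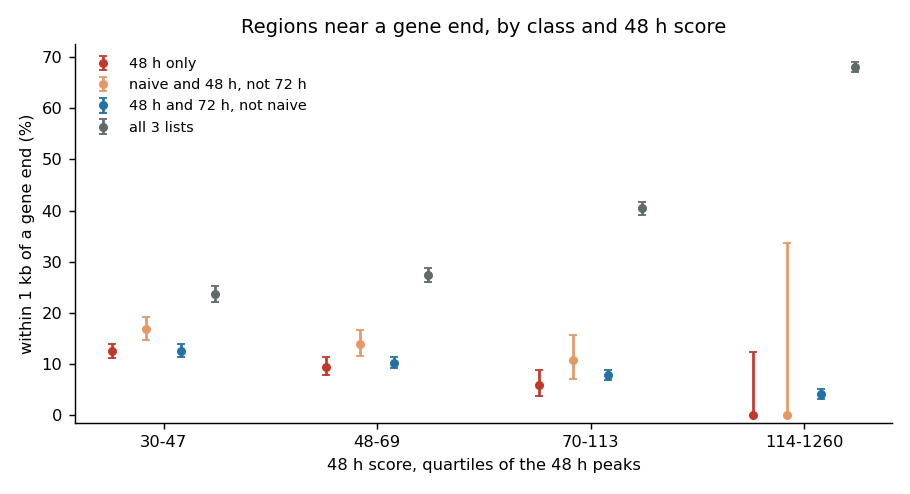
Share of regions whose middle lies within 1 kb of a protein-coding gene end (percent) by quartile of the authors' 48 h score, for the 4 classes with a 48 h peak; points are shares and bars exact 95% intervals for counting error. The 48 h only class goes from 12.6% to 0 of 28 while the class of all 3 lists goes from 23.6% to 68.1%.

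Over chromosomes the share of 48 h regions that were 48 h only ran from 8.08% on chromosome 17 to 12.2% on chromosome 12 among the autosomes and was 8.56% on the X chromosome. On Y it was 4 of 9, and on the mitochondrial genome 0 of 7.

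The 10 highest scores stood apart from the bulk, where 90% of the regions were at 70 or below. The highest, 233, belonged to chr1:171074408-171074549, which lies 35 bp from the tRNA gene n-TGgcc13 and 8493 bp from Fcgr3, an Fc receptor gene. There are 15 tRNA genes within 20 kb of it, and since tRNA genes exist in near-identical copies the placement of reads there may be uncertain, which was not tested. The other 9 scored between 125 and 139 and all lay away from gene ends. Inside genes were chr4:9642206-9642350 (134) in Asph, a hydroxylase gene, chr6:97012530-97012952 (132) in Tafa4, which encodes a secreted chemokine-like protein, chr11:88479579-88479865 (129) in Msi2, which encodes an RNA-binding protein, and chr6:28559474-28559666 (125) in Snd1, which encodes a nuclease-domain protein. Outside genes were chr1:156800034-156800407 (139), 3759 bp from Ralgps2, chr17:44459042-44459296 (129), 36691 bp from Runx2, a RUNX transcription factor gene, chr2:75749023-75749214 (127), 44360 bp from Nfe2l2, the gene of the oxidative stress factor NRF2, and chr10:17748066-17748353 (125), 22392 bp from Cited2, which encodes a partner of the coactivators CBP and p300. The remaining one, chr3:8246291-8246459 (137), was 263068 bp from the nearest gene, Stmn2, and 379 bp from a naive peak.

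Near gene ends the highest score was 93, at chr3:95675924-95676067, 134 bp from Adamtsl4, a gene of an extracellular matrix protein. Next came chr2:164403012-164403204 (89), which spans the start of Rbpjl inside Matn4 and whose upstream part is printed above. Scores of 88 were found at Rab37, a vesicle traffic GTPase, Mylip, a ubiquitin ligase of the LDL receptor, Nt5c1a, a nucleotidase, and Gimap8, a GTPase of lymphocytes. Rtn4rl1 (86), the histone gene H4c12 (83), Kirrel (78) and Capns1 (78) followed. H4c12 belongs to a repeated histone gene family, so the placement of its reads may be uncertain too, which was not tested.

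tRNA genes, which are short and transcribed by RNA polymerase III, were overlapped by 14 of the 3848 regions (0.364%, 0.199 to 0.610). The share was 0.0269% (4 of 14876, 0.00733 to 0.0688) for 72 h only regions, 0.0469% (11 of 23435, 0.0234 to 0.0840) for naive only regions, 0.150% (16 of 10674, 0.0857 to 0.243) for the 48 h and 72 h class and 0.514% (107 of 20812, 0.421 to 0.621) for all 3 lists. It was 0.383% (8 of 2091, 0.165 to 0.753) for the naive and 48 h class, close to that of the 48 h only regions. The interval for regions of the 48 h list alone lay wholly above those for regions of the naive or the 72 h list alone. Of the 14, 11 lay on chromosome 13 between 21215442 and 23450735. Scores of all 14 ran from 39 to 97 with a median of 52. The highest were n-TRccg3 and n-TIaat15, both at 97. Mapping among tRNA copies may be uncertain here too, and its part in the count was not tested.

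Small RNA genes gave 1 pair of relatives. The region chr1:195037355-195037494, with a score of 40, lies between Mir29b-2 and Mir29c, 234 bp and 52 bp from their hairpins on the plus strand. Both belong to the miR-29 family, known in T cells for restraining T-bet and interferon-γ. The mature 3′ arms, from RefSeq, share the seed of bases 2 to 8, in capitals.
mmu-miR-29b-3p: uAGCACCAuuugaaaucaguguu
mmu-miR-29c-3p: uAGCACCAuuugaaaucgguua
Within 1 kb of a miRNA hairpin lay 8 regions of the 3848 (0.208%, 0.0898 to 0.409), against 0.225% in the 48 h and 72 h class, 0.242% in 72 h only and 0.201% in naive only. The interval held each of those values and lay wholly below the 0.634% (0.531 to 0.752) of regions in all 3 lists. Besides the miR-29 pair, Mir193a (29 bp away, score 37), Mir7237 (17 bp, score 65) and Mir1247 (overlapping, score 36) were nearest.

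Genes were given every region that overlapped the gene body with 10 kb on each side. By this rule 2782 of the 48 h only regions lay at a protein-coding gene, 9.4% of the 29598 regions with a 48 h peak at a gene, and 1066 lay farther away. At least 1 of them was found at 2826 of the 15286 genes with a 48 h region (18.5%). There were 2333 genes with exactly 1, 493 with at least 2, 103 with at least 3 and 30 with at least 4, so most genes that had any had a single one. Inpp4b, which encodes a phosphoinositide phosphatase, had the most, 8 of its 30 regions with a 48 h peak, with scores of 30 to 117. It is a long gene that also had 36 naive and 33 72 h regions. Msi2 had 6 of 17, Lrba, needed for recycling of CTLA-4, 6 of 18, and Sox5, an HMG-box factor gene, 6 of 20. Ralgps1 and Snd1 had 5 of 14 each, Trerf1 5 of 16 and Arhgef3, a gene of a guanine nucleotide exchange factor, 5 of 22. Cntrl, which encodes a centriole protein, and Slc24a3, which encodes a calcium exchanger, had 4 of 7 each. At Slc24a3 there were 9 regions at 72 h only, and at Cntrl none.

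Clusters were small. Of the 3848 regions, 3052 started a 50 kb stretch with no further 48 h only region, and the largest number in a stretch was 4, which 22 starting points reached. The 3 described are those with the highest summed scores that do not overlap. At Cntrl 4 regions lay between 35142963 and 35155087 on chromosome 2, with scores of 45 to 101, in a stretch with 5 regions at 48 h, 1 at 72 h and 0 in naive cells. In Msi2 4 lay between 88479579 and 88517236 on chromosome 11, with scores of 36 to 129, and they were all of the 48 h regions there. The third stretch, 60402393 to 60439047 on chromosome 3, had no protein-coding gene and scores of 39 to 107.

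Il2, the gene of the T cell growth factor interleukin 2, was 1 of 22 genes among the 1902 with at least 5 regions at 48 h where 50% or more of them were 48 h only. That count was singled out after its values were seen. Il2 had 3 such regions of 5, and its neighbour Il21, the gene of a cytokine that Th17 cells make and respond to, had 2 of 5. Il2 lies on the minus strand of chromosome 3 at 37120713 to 37125954 and Il21 on the same strand at 37222759 to 37232636. Beyond the transcript end of Il2 lay chr3:37119638-37120052 (score 70, 661 bp away) and chr3:37120187-37120304 (54, 409 bp), a pair 134 bp apart. Upstream of Il2, 8307 bp from the start, lay chr3:37134171-37134351 (46). Farther up, between the genes, lay chr3:37153238-37153391 (32), 57 bp from a naive peak. Beyond the transcript end of Il21 lay the pair chr3:37213289-37213475 (92) and chr3:37213631-37213801 (51), 155 bp apart. Both pairs therefore sat past the transcript ends, and all 5 regions at the 2 genes lay outside the gene bodies.

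The start of Il2 itself behaved differently from these. The region over it, chr3:37125760-37125995, held a naive peak and a 48 h peak (score 84) and no 72 h peak. At 2489 bp upstream of the start, chr3:37128245-37128641 was in the 48 h list (53) and in the 72 h list and not in the naive list. Thus 4 different patterns over the 3 lists, including a naive only region 317 bp upstream of the start, were found within 10 kb of Il2.

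**Figure D4:**
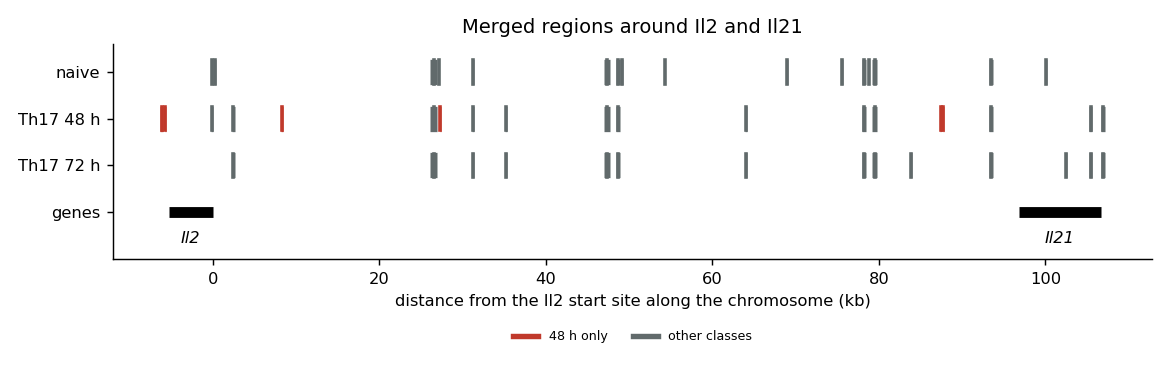
Regions around Il2 and Il21 by list (naive, Th17 48 h and Th17 72 h rows), placed by distance along the chromosome from the Il2 start site in kb, with gene bodies in black. Both genes are on the minus strand, so upstream is to the right. Positions are to scale, but the vertical marks have a fixed width and do not show region widths. Red marks are 48 h only regions and grey marks regions of other classes; the red pairs lie past the transcript ends of both genes.

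The gene lists were compared with the share at all protein-coding genes, 9.4%. Over all 18 lists, 96 of 1025 regions with a 48 h peak were 48 h only (9.37%, 7.65 to 11.3), with a median score of 44, the same as over all 3848. Every list's interval held 9.4%, so no list stood apart at this number of regions. The lists are small, and with 1 peak list per condition they carry counting error only.

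Among Th17 lineage genes 10 of 85 regions were 48 h only (11.8%, 5.79 to 20.6), at 6 of 18 genes. Rora, which encodes RORα, had 4 of 27 inside its body, with scores of 66, 44, 39 and 33. Il21 had 2 of 5, and Il23r (score 56), the receptor chain for IL-23, Hif1a (33), the hypoxia factor gene, and Batf (43) had 1 each. At the cytokine genes Il17a and Il17f themselves no 48 h only region was found. Their 3 and 1 regions at 48 h were all shared with 72 h and absent from naive cells, as were the 3 at Ccr6, the gene of the chemokine receptor of Th17 cells.

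The IL-6 and STAT3 pathway had 10 of 82 (12.2%, 6.01 to 21.3). Ptpn11, the phosphatase SHP2, had 2 of its 3 regions at 48 h only, at chr5:121196908-121197067 (score 76) and chr5:121183451-121183560 (38). Jak1, a kinase of cytokine receptors, had 2 of 15, of which one lies in the body of Raver2, and Jak2 and Il6st, the shared receptor chain gp130, had 1 each (39 and 73). The Jak2 region was nearest to another gene, Insl6, and the Jak1 region inside Jak1 itself lay 14 bp from a naive peak. Genes of TGF-β signalling and of regulatory T cells had 6 of 83 (7.23%, 2.70 to 15.1), among them 2 of 10 at Nrp1 (scores 41 and 54), a surface receptor of regulatory T cells, and 1 each at Tgif1 (37), a SMAD corepressor gene, Ikzf4 (41), which encodes the factor Eos, and Itgae (57), which encodes the integrin CD103.

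Lists of activation genes had shares of 6.25% to 9.41%. Immediate early genes had 5 of 80 (6.25%, 2.06 to 14), of which Jund had 2 of 5 (scores 39 and 54, upstream of the gene) and Fos, its AP-1 partner, 1 of 3 (score 36), with the phosphatase genes Dusp1 (38) and Dusp2 (88) making up the rest. The Dusp2 region lay inside the gene Astl, the Dusp1 region lay 9987 bp from Dusp1 and the Fos region lay 9682 bp from Fos. Nr4a1 and Myc, both with 4 regions at 48 h, had none. NFAT and NF-κB factors had 6 of 78 (7.69%, 2.88 to 16), including 2 of 4 at Tnfaip3 (scores 45 and 32), the gene of the NF-κB brake A20, and 1 each at the inhibitor genes Nfkbia (30) and Nfkbid (48) and at Nfatc1 (32). The Nfkbid region was nearest to another gene, Hcst, 431 bp away. The Tnfaip3 region of score 32 lay 27 bp from a 72 h peak. The Nfatc1 region lay 8 bp from a 72 h peak and 62 bp from a naive peak. BATF, JUN, FOS and IRF factors had 8 of 85 (9.41%, 4.15 to 17.7), with 2 of 6 at Irf2 (32 and 47) and 2 of 29 at Bach2, a repressor of effector fates. Costimulatory and checkpoint receptors had 7 of 79 (8.86%, 3.64 to 17.4). Cd69, an early activation antigen, had a pair within 1 kb of its gene body, chr6:129266002-129266651 (score 66) and chr6:129266835-129267041 (43), 183 bp apart, and Icos, a costimulatory receptor gene, had chr1:60996713-60996833 (71) inside it.

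Cytokine genes fell on both sides. IL-2 family cytokines and receptors had 7 of 46 (15.2%, 6.34 to 28.9): 3 at Il2, 2 at Il21, 1 of 2 at Il4 (score 33) and 1 at Il2rg (41), the common γ chain. The other effector cytokines and chemokines had 0 of 30, which allows up to 11.6%. Th1, Th2 and Tfh genes had 11 of 73 (15.1%, 7.77 to 25.4), with 3 of 13 at Tox (56, 34 and 36), 2 of 7 at Stat4 (60 and 70), the IL-12 signal transducer, and 1 of 2 at Tbx21 (37), the gene of T-bet.

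The list for naive and quiescent T cells had 15 of 129 (11.6%, 6.66 to 18.5). Foxp1, a quiescence factor gene, had 4 of 33 (scores 34 to 56), Ets1 2 of 12 (39 and 72), and Tcf7 1 region (35). The Foxp1 region of score 34 lay 19 bp from a naive peak. Growth, cell cycle and metabolism genes had the smallest share of the lists with a 48 h only region, 3 of 90 (3.33%, 0.693 to 9.43), at the cyclin genes Ccnd2 (31) and Ccnd3 (33) and at their kinase gene Cdk4 (34). The Ccnd3 region lay 58 bp from a 72 h peak, and the Cdk4 region lay inside the gene Tspan31.

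Pan T cell genes had 10 of 104 (9.62%, 4.71 to 17.0), among them 2 of 5 at Lat (38 and 52), an adaptor of T cell receptor signalling, and 1 at Cd3e (36). All 17 pan T cell genes found had a region at 48 h. Markers of other cells had fewer regions: B cell markers 20 at 8 of 10 genes, none of them 48 h only (up to 16.8%), myeloid markers 10 at 6 of 10 genes, with 1 at Spi1 (58), and CD8 and NK markers 13 at 7 of 10 genes, with 1 at Klrb1c (97). Housekeeping genes had 3 of 40 (7.5%, 1.57 to 20.4), among them regions near Gapdh and Eef1a1. The Gapdh region lay inside the gene Iffo1. Genes of unrelated tissues had 3 of 13 (23.1%, 5.04 to 53.8), at the keratin gene Krt5 (53), at the cardiac myosin genes Myh6 and Myh7, which share 1 region (37), and at Ttn (37), the titin gene. Such regions were therefore also found at genes outside T cell programmes.

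**Figure D5:**
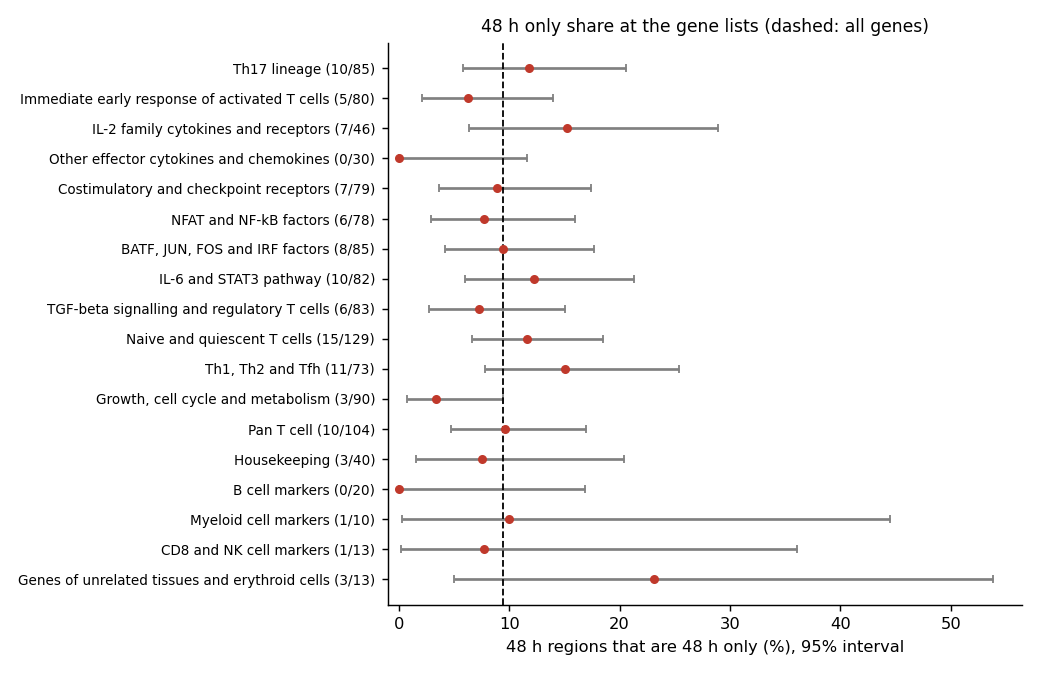
Share of the regions with a 48 h peak that were 48 h only (percent, horizontal axis) at each of the 18 gene lists, with the counts in brackets; points are shares, bars exact 95% intervals for counting error, and the dashed line the share at all protein-coding genes, 9.4%. Every bar reaches the dashed line.

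The running numbers in the peak names set a limit on absence. The numbers of the naive list go up to 57705, and 4446 of them belong to no peak analysed here, as do 4321 of the 72 h list. Of the 48 h only regions, 785 (20.4%) lay between consecutive naive peaks whose numbers skip, 828 (21.5%) between such 72 h peaks and 1430 (37.2%, 35.6 to 38.7) in either, which leaves 2418 clear of both. The naive share was alike for the 48 h and 72 h class (20.3%) and for 72 h only regions (19.9%). What those numbers belonged to is not known from the sources used here. All 5 regions at Il2 and Il21, both at Tnfaip3 and both at Ptpn11 were clear of them, as were 8 of the 10 highest scores and 63 of the 96 at listed genes. All 4 at Cntrl and both at Jund were not, nor were 2 of 4 at Rora, 2 of 4 at Foxp1 and 7 of the 14 on tRNA genes. Among the highest scores near gene ends, those at Adamtsl4, Rbpjl, Nt5c1a, Rtn4rl1 and Kirrel were not clear either.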

How the data were processed

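The series has 6 ATAC-seq libraries, 2 in each of 3 conditions, and 1 deposited peak list per condition was analysed. Per the submitters' processing notes, the authors used MACS2 2.2.6, Bowtie2 2.3.4.1, deepTools and SAMtools 1.9 with the mouse build GRCm38, also called mm10. Not given in the sources used here are the calling threshold, filters, treatment of duplicates, any Tn5 shift, and whether a list comes from 1 library or from both. The deposited 48 h and 72 h lists give a whole-number score per peak, the authors' own value on a scale that no header states, and the naive list gives none. Scores were used within 1 list only. The lists hold no reads or signal, so depth is unknown. Each list's peak starts and ends are other deposited values, here written 1-based. An empty line (1) of the naive list was skipped.

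Peaks sharing at least 1 bp were merged with Python 3.11.15, NumPy 2.4.6 and pandas 2.3.3, and exact 95% binomial intervals came from SciPy 1.17.1. The merge was tested on simulated data. Figures were drawn with Matplotlib 3.10.9. Genes, start sites, promoter windows and mature miRNAs came from RefSeq tables of GRCm38.p6. Of 273 listed genes 272 were found. Named regions were the 10 highest scores overall and near gene ends, the 5 smallest gaps and 5 smallest overlaps and the fullest 50 kb stretches. Named genes were the 10 with the most 48 h only regions and up to 4 per list, and other genes were named after their values were seen. Some genes that the rule names are not reported here. The regions, the gene lists and the motifs were chosen with earlier results of these data known. Alternatives covered the overlap rule, score, width and distance limits, list length and gene assignment, and 2 more, chosen after seeing the data, left out members between skipped peak numbers and chromosomes Y and M.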

Additional observations from a re-analysis of the deposited data

How the results depend on the processing

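Of 566 values under alternative settings, 330 stayed within their limits and 236 moved. Among values that answer a comparison 56 of 98 moved, and the causes beyond each setting's own construction (fewer or wider peaks, other distances) were not tested. The number of 48 h only regions (3848) became 415 with 48 h peaks at or above the median score, 1428 with 48 h and 72 h peaks at or above it, 1897 with peaks at or above the median width, 6505 with the widest peaks in lists of equal length and 2418 without members between skipped peak numbers. Their share of 48 h regions (10.28%) became, in the first 4 of these settings, 2.10%, 7.21%, 9.76% and 17.4%. It was 12.3% when sharing needed an overlap of at least 50% of the 48 h peak, 9.66% and 8.16% when peaks within 100 or 500 bp were also merged, and 9.47% for single peaks, and it has no value without members between skipped numbers. The median score (44) became 79, 82, 63 and 46 and the median width (137 bp) 176, 209 and 281 bp under the first 4 and the first 3 settings, and the width was 149 bp with the 50% overlap rule. The share inside a gene (57.1%) became 53.5%, 53.9% and 54.0% under the first 3. The share near a gene end (10.9%) was 5.06% and 7.07% with the 2 score limits, 13.2% with the 50% overlap, 8.89% and 5.55% with merging within 100 and 500 bp, and 5.67% and 17.1% for distances of 500 bp and 2 kb. The share with another list's peak within 1 kb (33.1%) was 24.1%, 19.4%, 17.0% and 27.0% under the first 4 settings, 35.0% both with the 50% overlap and without members between skipped numbers, 27.7% and 10.1% with merging, and 25% and 58.5% for 500 bp and 5 kb. Genes with a 48 h only region (2826) became 326, 1035, 1409 and 4464 under the first 4 settings, 1847 without members between skipped numbers, and 1814 and 5832 with gene flanks of 0 and 50 kb. The 96 regions at listed genes became 14, 45, 166, 61, 63, 51, 198 and 171 with the 48 h score limit, both score limits, equal lists, merging within 500 bp, skipped numbers left out, flanks of 0 and 50 kb and the nearest gene only. For single lists and genes 180 of 468 counts moved. No paired analysis was possible because there is 1 peak list per condition and the lists carry no replicate number, and leaving out a replicate was not possible for the same reason. A 100 bp motif window was not run because no genome of the build was used here.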
